A study of Gallus gallus with 4 samples.

Results

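SRCAP and NuA4 are chromatin complexes with subunits in common, and Arp6, an actin-related protein of the nucleus encoded by ACTR6, is a subunit of SRCAP. Levels of RNA are described here for 10 genes that encode other subunits of these complexes, in cells from which Arp6 was removed. The genes are VPS72, YEATS4, DMAP1, RUVBL1, KAT5, TRRAP, EPC1, ING3, BRD8 and MRGBP, named as partners of Arp6 or of the related p400/NuA4 complex, with the actin-related proteins left out. All probe sets that the platform annotation gives to 1 of these symbols alone were taken, which gave 17 of the 38439 probe sets other than controls. A probe set is a group of short array probes read as a single signal for a transcript.

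In vertebrate cells SRCAP exchanges the core histone H2A for the variant H2A.Z, using a chaperone subunit that holds H2A.Z and an ATPase ring. The NuA4 complex, also called TIP60 or p400, joins an H2A.Z exchange engine to an acetyltransferase for histones H4 and H2A. VPS72, YEATS4, DMAP1 and RUVBL1 belong to both complexes, while KAT5, TRRAP, EPC1, ING3, BRD8 and MRGBP belong to NuA4. These roles were worked out mostly in human cells and budding yeast.

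The cells were DT40, a chicken B cell lymphoma line, in which gene fragments of ARP6 holding exons 6 to 11 had been replaced by drug-resistance cassettes with Arp6 instead made from a transgene under tetracycline control, switched off when the drug is added. Polyadenylated RNA was hybridised to 4 Affymetrix chicken arrays, from a culture without induction of the knockout (day 0) and from cultures held 2, 4 and 6 days in tetracycline at 2 ug/ml. With 1 array per day no value carries a replicate error, and Arp6 loss, tetracycline and time in culture cannot be told apart. All ratios share the day 0 array, so a signal read too low or too high on it would move all 3 ratios of that probe set the same way.

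The deposited signals are linear intensities, and each array was scaled here to the same median over 16658 probe sets bright enough to keep. ACTR6, the targeted gene, had scaled signals of 7002, 318, 331 and 383 at days 0, 2, 4 and 6 by its brighter probe set, which was 22.0-fold, 21.1-fold and 18.3-fold below day 0. Its other probe set was below background at all 3 later days, at least 285-fold, 220-fold and 154-fold lower. Background is the signal that 95% of the array's unspiked control probe sets stay under, which was 25.4, 24.9, 32.1 and 45.9 at days 0, 2, 4 and 6. The share of kept probe sets below it was 4.89%, 4.72%, 6.71% and 14.8%, highest at day 6. The 3′ to 5′ signal ratio of beta-actin, a sign of RNA quality, was 2.07, 1.65, 1.84 and 2.22, and that of GAPDH lay between 0.872 and 0.937.

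As a check of the cell type, 10 of 11 B cell marker genes on the array were above background at day 0 and 9 at day 6. The summed signals of the 11 were 23975 and 20093, of which IGLL1 alone gave 9930 and 12828. Of the 9 B cell markers bright enough to test, 4 were 2-fold lower and 0 higher at day 6, with a median log2 ratio of -0.79. The lowest were CD74 (-5.01), BTK (-4.03) and CD79B (-2.47), and the highest were IGLL1 (0.37) and IRF4 (0.16). Among markers of other lineages, the genes above background on any single array numbered 3 or 4 of 8 for T cells, 1 to 4 of 5 for macrophages and granulocytes, 0 to 2 of 2 for red cells and thrombocytes, and 2 to 4 of 8 for fibroblasts and endothelium. The summed T cell signal went from 2684 at day 0 to 1097 at day 6, most of it from CD3D. Whether any of these moves with the subunit genes was not tested.

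Of the 17 probe sets, 14 passed the filter on dim signals, a mean log2 value equal to a signal of 29.1 or more over the 4 arrays, and each of the 10 genes kept at least 1. None of the 14 was 2-fold higher or lower at day 2, when 3.57% of all kept probe sets were 2-fold higher and 3.89% 2-fold lower. At day 4 the count was again 0 in each direction, beside 7.65% higher and 5.97% lower among all. At day 6, 3 of 14 were 2-fold lower and 0 higher, beside 8.51% lower and 10.8% higher among all. MRGBP gave 2 of the 3 probe sets and BRD8 the other, which was below background. Counted by each gene's brightest kept probe set, 0 of 10 genes passed 2-fold at days 2 and 4, where 2.42% and 5.77% of 8026 genes were higher and 2.97% and 5.12% lower. MRGBP was the 1 gene of 10 past 2-fold at day 6, where 8.35% of all genes were lower and 8.48% higher. With 10 genes that share is close to the background. With spike-in scaling MRGBP no longer passed, its 2 brighter probe sets standing at -0.93 and -0.84 on the log2 scale, and the 1 probe set still counted was that of BRD8 below background.

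The background shares move with the scaling. In the deposited values left unscaled, 4.86% of kept probe sets were higher and 10.5% lower at day 4, and 4.38% and 19.6% at day 6. Scaled to the spike-in controls they were 16.2% and 2.91%, and 15.7% and 5.99%. At day 2 the unscaled shares were 2.60% and 6.15%, and the spike-in shares 2.67% and 4.62%.

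Smaller differences leaned downwards at days 4 and 6. The median log2 ratio of the 14 probe sets was -0.06, -0.32 and -0.36 at days 2, 4 and 6, beside -0.0045, 0.03 and 0.04 for all kept probe sets. Below day 0 stood 8, 9 and 11 of the 14, while 50.4%, 47.5% and 47.5% of all kept probe sets did. Spike-in scaling turned the day 4 median to 0.04, although its distance below the median of all probe sets stayed at -0.35. The 14 are not independent, as MRGBP has 3 of them and YEATS4 and BRD8 have 2 each. By brightest probe set the median of the 10 genes was 0.0028, -0.32 and -0.18, so the day 6 value depends on which probe set stands for a gene.

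**Figure D1:**
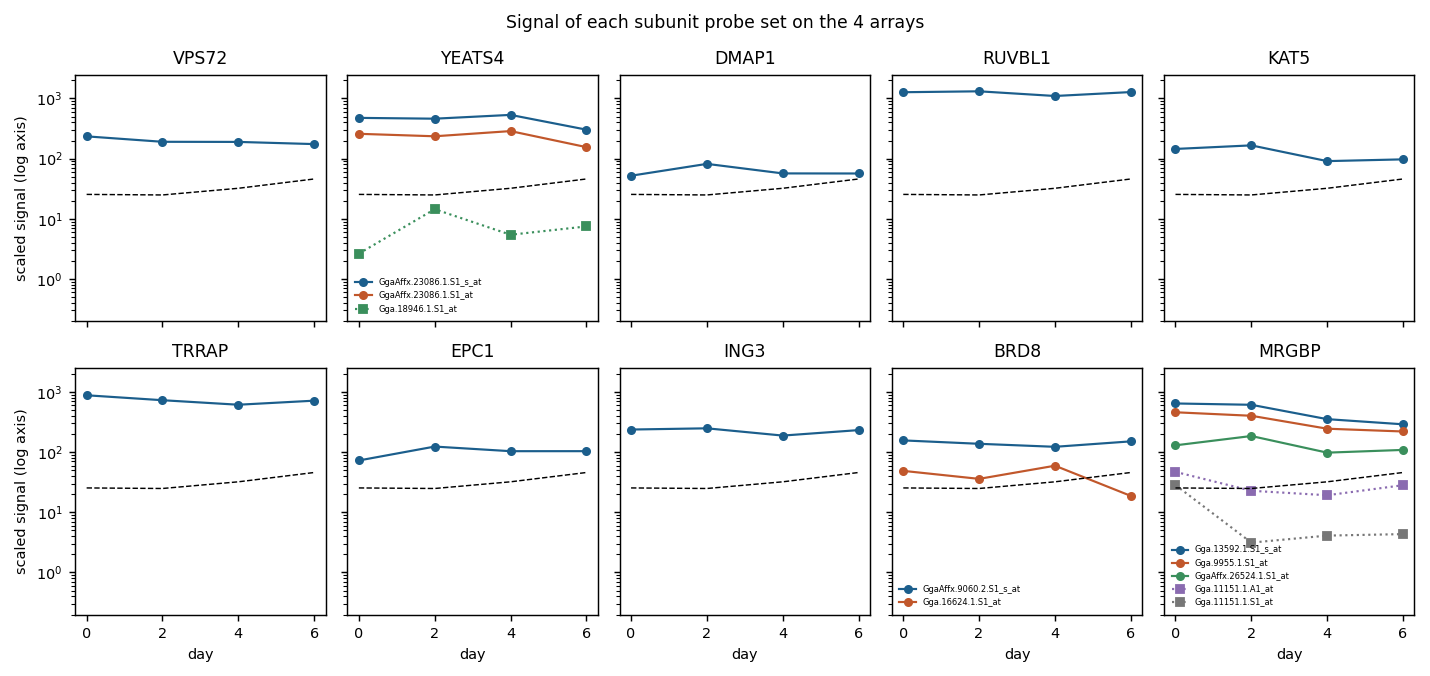
Scaled signal (log axis) of each probe set of the 10 subunit genes against day; solid lines with circles are kept probe sets, dotted lines with squares are those too dim to keep, and the dashed line is the array background. The 3 kept MRGBP probe sets are lower at days 4 and 6 than at day 2, both kept YEATS4 probe sets are lowest at day 6, and RUVBL1 runs nearly level between 1099.7 and 1315.

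MRGBP encodes the small NuA4 subunit that binds the MRG-domain proteins MORF4L1 and MORF4L2 and so ties the complex's MRG module to the rest. Its brightest probe set, Gga.13592.1.S1_s_at, had scaled signals of 645 at day 0, 613 at day 2, 354 at day 4 and 290.5 at day 6. The values of days 0 and 2 lie close together, and those of days 4 and 6 lie well below them. Relative to day 0 the signal was 1.05-fold, 1.82-fold and 2.22-fold lower, and at day 6 it stood at percentile 6.57 of all kept probe sets. Among the 4002 kept probe sets with a mean signal of 400 or more, where ratios scatter least, 2.90% were 2-fold lower at day 6.

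A second MRGBP probe set, Gga.9955.1.S1_at, showed the same course, with signals of 460.3, 403, 245 and 221. It was 1.14-fold, 1.88-fold and 2.09-fold lower at the 3 later days. Its mean signal lies between 100 and 400, where 7.99% of 5568 kept probe sets were 2-fold lower at day 6. The third kept probe set, GgaAffx.26524.1.S1_at, read 129.9, 186, 98.2 and 109 and so was highest at day 2, with log2 ratios of 0.51, -0.40 and -0.25. From day 2 to day 4 all 3 differed alike, by -0.79, -0.71 and -0.92 on the log2 scale, placing them at percentiles 6.39, 7.75 and 4.80 of that step. From day 4 to day 6 the differences were smaller and of mixed sign, at -0.28, -0.15 and 0.15.

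At day 6 the log2 ratios of the 2 brighter probe sets differed by 0.09, and all 3 spanned 0.90. Over 3577 genes with at least 2 kept probe sets, the 2 brightest differed by a median of 0.31, 0.38 and 0.41 at days 2, 4 and 6, with a 90th percentile of 1.24 at day 6. Of 246 such genes whose brightest probe set was 2-fold lower at day 6, 90 (36.6%) were 2-fold lower by the next brightest as well, as MRGBP was.

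The annotation gives MRGBP another 2 probe sets, too dim to keep, with mean signals of 27.6 and 6.31. They share the target number 11151.1, and whether they match the MRGBP transcript and its strand was not tested. Gga.11151.1.A1_at read 47.0 at day 0 and 22.8, 19.2 and 28.2 later, below background on those 3 arrays and therefore at least 1.89-fold, 1.46-fold and 1.02-fold lower. Gga.11151.1.S1_at read 28.4 at day 0, just above background, and 3.14, 4.10 and 4.34 afterwards. It was at least 1.14-fold lower at day 2, and its bounds at days 4 and 6 do not reach 1. The 3 kept probe sets were above background on every array and read lower at days 4 and 6 than at day 0.

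KAT5 (also TIP60) is the acetyltransferase of NuA4. Its probe set read 145, 166, 90.9 and 97.3 at days 0, 2, 4 and 6. As with MRGBP, the 2 early arrays were higher than the 2 late ones. It was 1.15-fold higher at day 2, then 1.59-fold and 1.49-fold lower. The step from day 2 to day 4 measured -0.87 on the log2 scale, at percentile 5.34 of all kept probe sets, and the step from day 4 to day 6 measured 0.10. All 5 scalings gave a negative log2 ratio at days 4 and 6, from -0.92 to -0.31 and from -1.04 to -0.35.

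EPC1, enhancer of polycomb homolog 1, is the scaffold that holds the acetyltransferase to nucleosomes. With the main scaling it was the 1 gene of the 10 with log2 ratios above 0.5 at all 3 later days. Its signals were 72.8 at day 0 and 124, 104 and 104 afterwards, so day 0 was the low array and the later 3 differed little. The ratios were 1.70-fold, 1.43-fold and 1.43-fold, at percentiles 93.5, 79.0 and 75.2. The day 0 signal was 2.86 times background. Without scaling the log2 ratios at days 4 and 6 were 0.27 and 0.05, and with quantile normalization they were 0.45 and 0.44.

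ING3, whose PHD finger reads methylated lysine 4 of histone H3, stood near day 0 at days 2 and 6. At day 4 it was 1.26-fold lower. The signals were 238, 249, 189 and 233, with the lowest at day 4. Its log2 ratios of 0.07, -0.33 and -0.03 had signs that depended on the scaling, and spike-in scaling gave -0.03, 0.03 and 0.19.

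TRRAP, a very large pseudokinase that transcriptional activators such as MYC dock on, also belongs to the SAGA acetyltransferase. Its signals were 882, 730.3, 614 and 718, highest at day 0. The log2 ratios were -0.27, -0.52 and -0.30, and they remained below 0 under all 5 scalings, with -0.07 nearest to 0 at day 6 (spike-in scaling).

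BRD8 is a bromodomain protein, of a family that binds acetylated histones. The brighter probe set read 157, 138, 123 and 151, with log2 ratios of -0.19, -0.35 and -0.05. At days 4 and 6 spike-in scaling turned these to 0.0088 and 0.17, and scaling to the 75th percentile turned the day 6 value to 0.0039. Its dimmer probe set, Gga.16624.1.S1_at, read 48.9, 36.0, 59.6 and 18.7. The last of these lies below the day 6 background and below the floor of 19.4 applied before ratios, which gives 2.52-fold lower with the floor but only at least 1.06-fold against background. The probe sets of BRD8 differed by 1.28 on the log2 scale at day 6, more than the 90th percentile of 1.24 among all genes with 2 or more.

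Among the subunits of both complexes, VPS72 (also YL1) is the chaperone that binds H2A.Z with H2B. Its signals were 235 at day 0 and 191, 189.6 and 174 later, highest on the array with Arp6 on. Relative to day 0 it was 1.23-fold, 1.24-fold and 1.34-fold lower, at percentiles 24.0, 27.5 and 23.9 of all kept probe sets. The day 4 log2 ratio of -0.31 turned to 0.06 with spike-in scaling, while the other days kept their sign under all 5 scalings.

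YEATS4 (also GAS41), a reader of acetylated histone H3, stood below day 0 mainly at day 6, short of 2-fold. Probe set GgaAffx.23086.1.S1_s_at read 476, 461, 533 and 303, and GgaAffx.23086.1.S1_at read 259, 235, 287 and 155. The names of this pair share a target number, so they are no independent readings of the gene. Day 6 was the lowest array for both, 1.57-fold and 1.67-fold below day 0. From day 4 to day 6 the log2 differences were -0.81 and -0.89, at percentiles 9.60 and 8.44 of all kept probe sets for that step. The remaining probe set, Gga.18946.1.S1_at, read between 2.64 and 14.4, below background on every array.

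DMAP1, named for its binding to the DNA methyltransferase DNMT1, is dim on these arrays. It read 52.0, 81.8, 56.8 and 56.6, with day 2 above the other 3 arrays. The day 2 signal was 1.57-fold above day 0, at percentile 91.3. At days 4 and 6 it was 1.09-fold higher on each, which quantile normalization turned to log2 ratios of -0.06 and -0.12 and leaving the values unscaled to -0.12 and -0.34. The day 6 signal was 1.23 times background, so little room was left to see it lower.

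RUVBL1 (also pontin) is an AAA+ ATPase that assembles with RUVBL2 into the ring at the core of SRCAP, NuA4 and INO80. Its signals were 1270.25, 1315, 1099.7 and 1278. No array stood apart, and its total range over the 4 days, 0.26 on the log2 scale, was the narrowest of the 14 kept probe sets. The log2 ratios were 0.05, -0.21 and 0.01, and each changed sign under at least 1 other scaling.

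**Figure D2:**
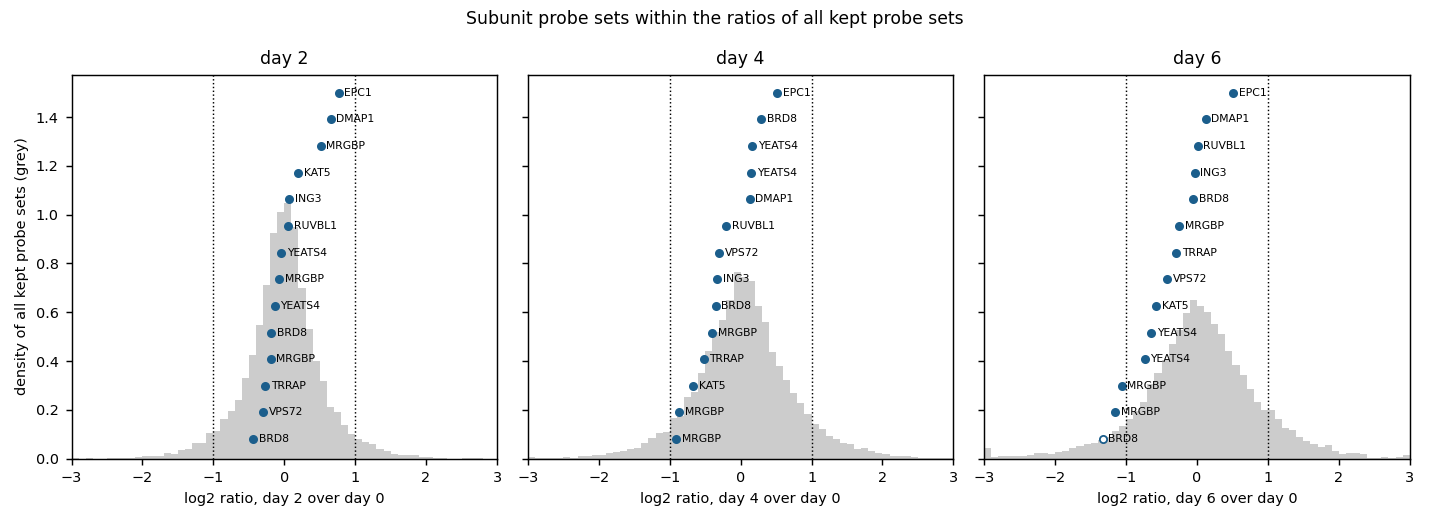
Log2 ratio to day 0 of the 14 kept subunit probe sets (points, sorted from lowest to highest, with gene names) over the density of all 16658 kept probe sets (grey) at days 2, 4 and 6; dotted lines mark 2-fold, the open point is below background and ratios beyond 3 are drawn in the end bins. The grey distribution widens from an SD of 0.54 at day 2 to 0.69 at day 4 and 0.83 at day 6, and the subunit points stay within it.

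Whether the slope of log2 signal over days differed from 0 was tested with limma on all 16658 kept probe sets, with Benjamini-Hochberg adjustment. The fit takes the change as linear in days, so whether a probe set followed a straight line was not tested. No subunit probe set passed an adjusted p of 0.05, and 0% of all kept probe sets did, with 2729 of them and 2 of the 14 at an unadjusted p under 0.05. Those 2 were MRGBP probe sets, at -0.21 ± 0.05 (SE) and -0.19 ± 0.05 log2 units per day and limma adjusted p of 0.224 and 0.228. The third kept MRGBP probe set gave -0.08 ± 0.08 (adjusted p = 0.616 by limma). Other subunits had limma adjusted p values between 0.392 (KAT5, -0.13 ± 0.06 log2 units per day) and 0.968 (DMAP1). ACTR6 itself did not pass, at 0.351 and 0.324, so a miss in this fit of 4 arrays does not show that a gene's level was unaltered. When the variance prior was allowed to vary with signal (limma-trend), 831 of all kept probe sets passed, among them these 2 MRGBP probe sets at adjusted p of 0.0153 and 0.0320 and both ACTR6 probe sets at 0.0496 and 0.0360.

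**Figure D3:**
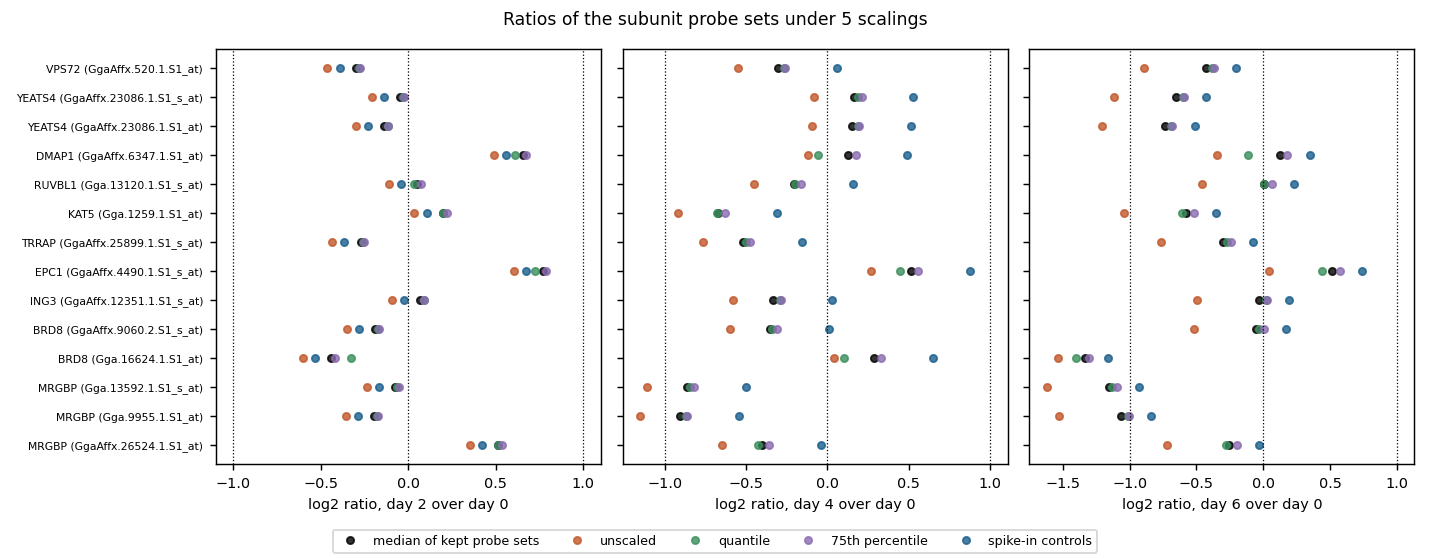
Log2 ratio to day 0 of each kept subunit probe set at days 2, 4 and 6 under 5 ways of scaling the arrays (colours); dotted lines mark no difference and 2-fold. Leaving the values unscaled moves all probe sets down and spike-in scaling moves them up at days 4 and 6, while their order is nearly the same, with both brighter MRGBP probe sets at -0.84 or below at day 6 in all 5.

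Genes nearest to MRGBP were sought by the course of its brightest probe set, leaving out symbols that begin with LOC or RCJ. They were NECAP1, AP3S2 and NEK4, at distances of 0.10, 0.12 and 0.13 over the 3 log2 ratios. NECAP1 stood at -0.10, -0.96 and -1.12, against -0.07, -0.87 and -1.15 for MRGBP. Within a distance of 0.25 lay 21 of the 8026 tested genes, with no symbol left out of this count.

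Of the 12 listed further subunits of the 2 complexes, 7 were found on the array by name and 6 were bright enough to test. The 7 were ACTR6, ACTL6A, ACTB, MEAF6, MORF4L2, MBTD1 and EPC2. No reading is given here for the SRCAP and p400 genes themselves. Apart from ACTR6 none of the 6 tested was 2-fold different at any later day. MORF4L2, the MRG-domain protein that MRGBP binds, read 1406, 1436, 1281 and 1195, with log2 ratios of 0.03, -0.13 and -0.23. MEAF6, of the acetyltransferase module, stood at -0.04, -0.13 and -0.16, and MBTD1, a reader of methylated histone H4, at -0.25, -0.21 and -0.06. A dimmer kept probe set of MBTD1 stood at -0.16, -0.29 and -0.69.

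ACTL6A, the actin-related subunit Baf53a, stood at -0.0041, -0.01 and -0.50 by its brightest probe set, but at 0.55, 0.99 and 0.65 by a dimmer one. Beta-actin (ACTB) stood at -0.13, -0.32 and -0.61, while 3 dimmer kept probe sets disagreed with it and with each other, at 0.61, -0.54 and 1.25 at day 6. EPC2, the paralog of EPC1, was too dim to keep and below background at days 4 and 6. At day 6 all 6 tested genes were below day 0, but these include ACTR6, whose loss was set by the design. Of the 10 subunits described above, 7 were below day 0, against 50.7% of all 8026 genes.

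RNA of the histone variant that these complexes handle was near day 0, and the protein was not measured. H2AFZ, an H2A.Z gene, read 4944, 5200, 5560 and 4614, and H2AZ2 read 3676, 3870, 3021 and 3193. Their log2 ratios lay between -0.28 and 0.17. ANP32E, a chaperone that removes H2A.Z, stood at 0.48, 0.46 and 0.14, and at 0.51, 0.18 and 1.18 by its dimmer probe set.

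Complexes that share a subunit with these genes, and other related lists, were counted in the same way, by brightest kept probe set. Among all 8026 genes, 2.42%, 5.77% and 8.48% were 2-fold higher at days 2, 4 and 6, and 2.97%, 5.12% and 8.35% lower. INO80, which shares RUVBL1, had 8 tested genes, with 0 past 2-fold at days 2 and 4 and 1 higher at day 6. That gene was NFRKB (65.0, 85.3, 101 and 159). The list of R2TP and TTT cochaperones, which assemble RUVBL1 ring clients and the TRRAP kinase family, had 8 tested genes and 0 past 2-fold on any day. The 8 include the chaperone genes HSP90AA1 and HSP90AB1 as well as PFDN2 and URI1. Of the 5 kinases related to TRRAP, MTOR alone passed, 2.67-fold lower at day 4, while its other kept probe sets stood at log2 ratios of 0.19 and 0.21 that day. The probe set with 0.21 was below background at days 0 and 4, so its ratio cannot be read.

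SAGA, which shares TRRAP, had 14 tested genes with 0, 2 and 1 of them 2-fold lower at the 3 later days and 0 higher. TADA2A, an adaptor of its acetyltransferase, read 202, 157, 88.4 and 78.3, 2.28-fold and 2.58-fold lower at days 4 and 6, with -1.84 and -1.36 on the log2 scale by its second probe set and -0.01 and -1.85 by the dimmest kept one, below background at day 6. TADA3, of the same module, lost its signal to background on the day 4 array alone, with a bound of at least 3.06-fold. Other MYST-family acetyltransferases and their partners (17 tested) had 2, 1 and 2 genes 2-fold higher and 0, 0 and 1 lower. The dim gene JADE3 stood at 1.75, 2.13 and 1.43 (0.49, 0.37 and 0.18 by its other kept probe set), KANSL1 was not above background on the day 0 array (bounds of at least 2.14-fold, 1.46-fold and 2.68-fold higher), and KANSL2 was not above it on the day 6 array (at least 1.26-fold lower).

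Readers of the YEATS, ING and bromodomain families (11 tested) had 0, 2 and 1 genes 2-fold lower and 0 higher. BRD7 read 501, 475, 235 and 277, and BRD3 read 97.8, 57.4, 45.2 and 23.9, with the last reading under background (a bound of at least 2.13-fold lower). Substrates of KAT5 and genes of the damage response that it serves (5 tested) had 0 past 2-fold on any day. The medians at day 6 were -0.08 for INO80, -0.16 for the cochaperone list, -0.38 for the kinases and 0.08 for SAGA. They were -0.14 for the MYST list, -0.14 for the readers and -0.09 for the KAT5 substrates. Some lists overlap. ING4, ING5 and BRD1 are in both the MYST and reader lists, and ING5 gives the median of both. MCRS1 is in the INO80 and MYST lists, and ATM is in those of the kinases and the KAT5 substrates. The median was -0.18 for the 10 subunits and -0.0091 for all genes.

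**Figure D4:**
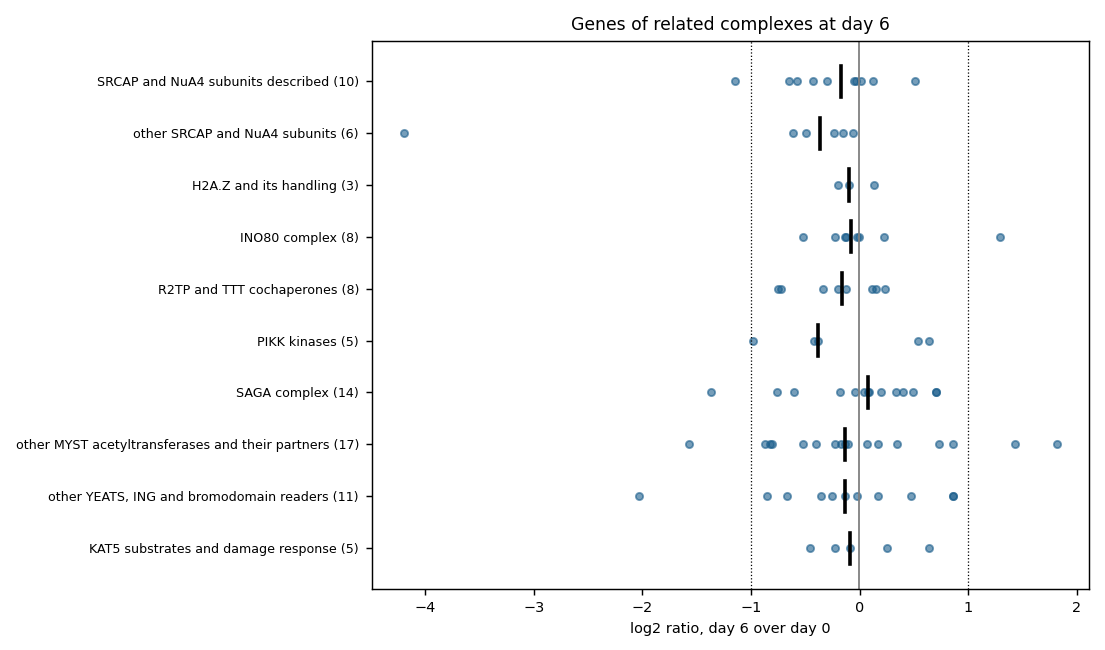
Log2 ratio of day 6 to day 0 for the brightest kept probe set of each gene, for the 10 subunits described and for 9 related gene lists (number of tested genes in brackets); black bars are medians, the grey line is the median of all 8026 genes and dotted lines mark 2-fold. The 10 subunits lie between -1.15 (MRGBP) and 0.51 (EPC1), and the point near -4 among the other SRCAP and NuA4 subunits is ACTR6.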

How the data were processed

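The values deposited by the authors are 1 linear signal intensity per probe set and array, made with GeneChip Operating Software 1.3 per the labels' protocols and the series' design text. How the software computed a signal, and whether the arrays were scaled to each other, is not stated in the labels. From these intensities, 96 control probe sets were left out. Probe sets were kept if their mean log2 value reached the median over all probe sets and arrays, and each array was scaled to a common median over them (factors 0.859, 0.962, 1.02 and 1.19 at days 0, 2, 4 and 6). Signals under the 40th percentile, 19.4, were raised to it before log2 ratios were taken. Where the dimmer signal was below background, the ratio is also given as a bound ("at least"). The platform annotation named 27168 probe sets with 1 symbol, 177 with several (not used) and left 11094 unnamed here. RefSeq symbols, matched by gene number (assembly GRCg7b), were the same for all 17 probe sets.

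A gene or probe set was counted as different at 2-fold, with no test between days. Trends over days were fitted with limma 3.58.1 (R 4.3.3). Tested on simulated data, this fit did not recover 2-fold changes from day 0 to day 6. It missed most at a log2 change of 2 and some at each larger size tried. The remaining computation used pandas 2.3.3 and numpy 2.4.6 under Python 3.11.15, and matplotlib 3.10.9 drew the figures. The members, the gene lists and these rules were chosen with earlier results of these data known. Named genes were all probe sets of the 10 genes and ACTR6, the 3 genes nearest to any member past 2-fold by its brightest probe set, all tested genes of the lists of further subunits and of H2A.Z, and up to 3 genes past 2-fold from each other list. Symbols that begin with LOC or RCJ were passed over in choosing the nearest genes. CD3D and EPC2 were named after their values were seen. Also outside this rule, HSP90AA1, HSP90AB1, PFDN2 and URI1 were named as members of the cochaperone list. IRF4 and IGLL1 were named as the highest B cell markers. Precision is limited by having 4 arrays. Alternatives were other scalings, filters, floors, fold thresholds, gene summaries and trend settings.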

Additional observations from a re-analysis of the deposited data

How the results depend on the processing

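With 1 array per day, no alternative could leave out a replicate. No paired analysis was possible because each day has 1 array and the labels give no numbered replicates. At day 2 the count of subunit probe sets past 2-fold went from 0 to 1 with no filter on dim signals. It was 2 at a 1.5-fold threshold, where 10.4% of all kept probe sets were higher and 11.5% lower. Without the filter, 2.60% of all probe sets were 2-fold higher and 3.58% lower. At day 4 the count went from 0 to 2 with the deposited values unscaled (both MRGBP), to 1 without the filter and to 3 at 1.5-fold. Without the filter, 7.86% of all were higher and 4.55% lower, and at 1.5-fold 18.3% and 15.1%. At day 6 the count of 3 became 6 unscaled (adding both YEATS4 probe sets and KAT5) and 1 with spike-in scaling (the dim BRD8 probe set). It was 1 with a pseudocount of 29.1 in place of the floor and 1 by brightest probe set of each gene. It was 0 by the mean of each gene's probe sets, 5 at 1.5-fold and 0 at 3-fold. The shares of all, higher and lower, were 21.9% and 18.0% at 1.5-fold, and 3.27% and 3.25% at 3-fold. With the pseudocount the shares were 4.80% and 4.89%, and by the mean of each gene's probe sets 8.60% and 7.50%. The median log2 ratio at day 2, -0.06, turned to 0.0028 by brightest probe set and to 0.0588 by the mean of each gene's probe sets. Spike-in scaling took the day 4 median from -0.32 to 0.0423, and the day 6 median, -0.36, was -0.83 unscaled. The trend count of 0 became 2 with limma-trend and was 0 under the other 17 alternatives, including a fit without each day. Of 336 single ratios recomputed, 316 counted as the same. These kept their side of 2-fold, and those short of 2-fold also moved by no more than the median difference between probe sets of a gene that day. Another 9 stayed short of 2-fold but moved by more. The remainder crossed 2-fold, 5 going past it and 6 falling short of it. For ratios past 2-fold the size of the move was not limited, and a turned sign was not counted. The sign turned in 8 of 42 ratios with spike-in scaling, 7 unscaled, 3 with quantile normalization and 2 with scaling to the 75th percentile. The dim BRD8 probe set at day 6 went from -1.33 to -0.17 with a floor at the 60th percentile and to -0.09 with a floor at the highest array background, an alternative chosen after seeing the data. Other causes were not tested. Signals near background limit DMAP1, EPC1 and that BRD8 probe set.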
